A study of Mus musculus with 6 samples.

Results

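Collagens are the main structural proteins of connective tissue, and the 44 mouse collagen genes described here were all features whose symbol is Col, a type number, a and a chain number, of 31054 features in all. Their levels were read across cell types that were picked out by marker genes other than collagens, so the collagens themselves played no part in choosing the cells. The study examined precursors of osteoclasts, the cells that resorb bone, by droplet-based 3′ single-cell RNA sequencing. Its labels list 6 mouse samples in 3 groups of 2. The first group was macrophage and monocyte lineage cells of whole E14.5 embryos of the genotype Cx3cr1CreER; R26tdTomato, with 4-hydroxytamoxifen injected into the pregnant dam at E9.5. The second was the same fraction of E14.5 embryos that carried the driver Csf1r-Mer-iCre-Mer together with the Csf1r-EGFP transgene and the R26tdTomato reporter, injected at E8.5. Cx3cr1 and Csf1r, whose promoters drive the Cre, are genes of the macrophage lineage, and no label names a sort for connective cells. The third group was total bone marrow of wildtype C57BL/6 mice aged 2 months.

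The deposited matrix holds UMI counts, where a unique molecular identifier (UMI) marks a single captured transcript, for 39048 barcodes that end in a number from 1 to 4. Those numbers match no sample label, so the barcodes are given as libraries 1 to 4, no library stands for a genotype, and no test across samples could be made. After filtering, 34372 cells with 546854113 UMIs remained, with library medians of 13077 to 14773 UMIs per cell. Of 33797 barcode sequences among these cells, 566 occurred in more than 1 library. Levels are counts per 1000000 UMIs (CPM) over the summed UMIs of a gate, with exact Poisson 95% intervals in brackets, and these intervals, like the exact binomial (Clopper-Pearson) ones of shares, cover counting error only. With 1 tag counted per captured molecule, CPM was not divided by gene length, so a comparison between genes is one of UMIs and not of protein. Differences between gates are log2(CPM + 10). This scale makes differences of low genes look smaller than they are. A gene is counted as higher or lower when it differed at least 4-fold on that scale.

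A collagen molecule is a triple helix of chains that are encoded by separate genes, modified and folded in the endoplasmic reticulum, secreted, trimmed and cross-linked. Fibrillar collagens (types I, III and V in soft tissue and bone, types II and XI in cartilage) form the load-bearing fibrils, and the fibril-associated types IX, XII, XIV and XVI sit on their surface. Type IV collagen forms the sheet-like network of basement membranes, with types XV and XVIII at its border, and type VI forms beaded filaments around cells. Osteoclasts stand on the other side of this balance: they dissolve bone mineral and digest its collagen.

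Chain genes of 1 trimer can lie together, and the type IV chains do. Col4a1 (chr8:11198423-11312826 in GENCODE M21 on GRCm38, minus strand) and Col4a2 (chr8:11312805-11449287, plus strand) start head to head, and the 2 promoter windows below overlap by 78 bases. These windows, taken from RefSeq on GRCm38.p6, run from 250 bases before to 50 bases after the annotated start, at chr8:11312777-11313076 on the minus strand and chr8:11312555-11312854 on the plus strand. They are shown because both chains were highest in the same gates, endothelial and then mural. Capitals mark the shared stretch, which reads as the reverse complement in the other window.
Col4a1: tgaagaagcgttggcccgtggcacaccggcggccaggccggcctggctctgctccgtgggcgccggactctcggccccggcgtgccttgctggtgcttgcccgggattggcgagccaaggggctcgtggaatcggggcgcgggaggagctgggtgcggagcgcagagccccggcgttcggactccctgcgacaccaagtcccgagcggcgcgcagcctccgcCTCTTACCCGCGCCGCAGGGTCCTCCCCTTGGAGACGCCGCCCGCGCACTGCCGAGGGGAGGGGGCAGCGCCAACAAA
Col4a2: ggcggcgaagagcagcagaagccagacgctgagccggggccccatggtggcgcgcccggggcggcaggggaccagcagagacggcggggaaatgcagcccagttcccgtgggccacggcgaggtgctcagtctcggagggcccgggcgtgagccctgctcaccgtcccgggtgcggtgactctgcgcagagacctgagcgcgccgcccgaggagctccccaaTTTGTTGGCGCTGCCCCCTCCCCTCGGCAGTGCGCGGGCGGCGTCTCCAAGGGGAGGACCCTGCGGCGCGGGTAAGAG

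The genes of the type I chains lie apart. Col1a1 is on chromosome 11 (94936224 to 94953042, plus strand) and Col1a2 on chromosome 6 (4504814 to 4541544, plus strand). The Col1a2 window (chr6:4505368-4505667, plus strand), shown because Col1a2 was among the leading genes of stromal cells, held 2 matches to CCAAT or its reverse complement ATTGG, here in capitals.
Col1a2: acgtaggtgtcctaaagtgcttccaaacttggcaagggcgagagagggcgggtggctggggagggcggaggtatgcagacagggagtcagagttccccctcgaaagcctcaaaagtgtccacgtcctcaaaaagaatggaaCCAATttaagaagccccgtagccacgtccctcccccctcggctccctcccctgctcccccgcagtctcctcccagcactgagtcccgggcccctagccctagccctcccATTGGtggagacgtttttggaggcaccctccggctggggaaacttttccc
Such a match was present in the windows of 13 of the 35 collagens with a window and in 37.4% of all 32851 windows.

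Col27a1 (chr4:63214004-63334991, plus strand), which encodes the fibrillar chain of type XXVII of developing cartilage, was the collagen that stood out in osteoclasts. Its window (chr4:63215162-63215461, plus strand) held 2 matches to GGGCGG or CCGCCC, the GC box, here in capitals.
Col27a1: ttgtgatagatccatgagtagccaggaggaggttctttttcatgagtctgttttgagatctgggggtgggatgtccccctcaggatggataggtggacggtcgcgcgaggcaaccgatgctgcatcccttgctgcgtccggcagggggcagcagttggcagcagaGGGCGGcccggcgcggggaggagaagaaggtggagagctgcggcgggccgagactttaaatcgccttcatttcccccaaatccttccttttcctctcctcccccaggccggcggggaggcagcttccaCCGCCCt
GC boxes were present in the windows of 22 of 35 collagens and in 35.7% of all windows. A TATAAA match, either strand, was present for 5 of 35 collagens and in 13.6% of all windows, and CACGTG for 0 of 35 and in 7.15%. A match describes these letters in this window and nothing about binding.

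The stromal gate required at least 2 of Dcn, Lum and Ptn and held 488 cells, 178, 82, 90 and 138 in libraries 1 to 4. Of these, 5 lay within 25% above the lower limit of the gate's score, and 47 other cells lay within 25% below it. Connective-tissue genes outside the gate were present in it, with Mfap4 at 715 CPM, Postn at 511, Twist2 at 368, Prrx1 at 340 and Pdgfra at 92.2, against 3.74, 1.89, 2.35, 3.21 and 0.592 in the macrophage gate of 12552 cells. Leukocyte markers, 6 of 6 with a UMI, summed to 293 CPM in the stromal gate (228 to 340 by library) against 8585 among macrophages, and their part in the values below was not tested. The other gates used most were cartilage (33 cells), endothelial (253 cells) and osteoclast (74 cells). A further 235 barcodes passed a stromal and a leukocyte gate together and were left out. Median depth was 9807 UMIs in stromal, 10749 in endothelial, 12865 in macrophage and 25803 in osteoclast cells.

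Collagens as a group took 0.997% of all UMIs in the stromal gate (0.901%, 1.30%, 0.883% and 1.03% in libraries 1 to 4) and 0.970% in the cartilage gate. The share was 0.378% in mural cells (pericytes and smooth muscle, 28 cells), 0.190% in Schwann cells (30 cells) and 0.141% in endothelial cells. It was 0.0111% in osteoclasts, 0.00509% in macrophages and 0.00180% in monocytes, so the stromal and cartilage gates lay far above these blood gates in each library. Within the stromal gate the share per cell ranged from 0 to 5.66%, with a median of 0.696%, and 6 of 488 cells had no collagen UMI. Of the 44 genes, 41 had at least 1 UMI in stromal cells, 29 reached 10 CPM and 16 reached 50 CPM, while Col10a1, Col20a1 and Col28a1 had none. Taking 3 UMIs as the limit that a count of 0 allows, this leaves up to 0.608 CPM each.

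**Figure D1:**
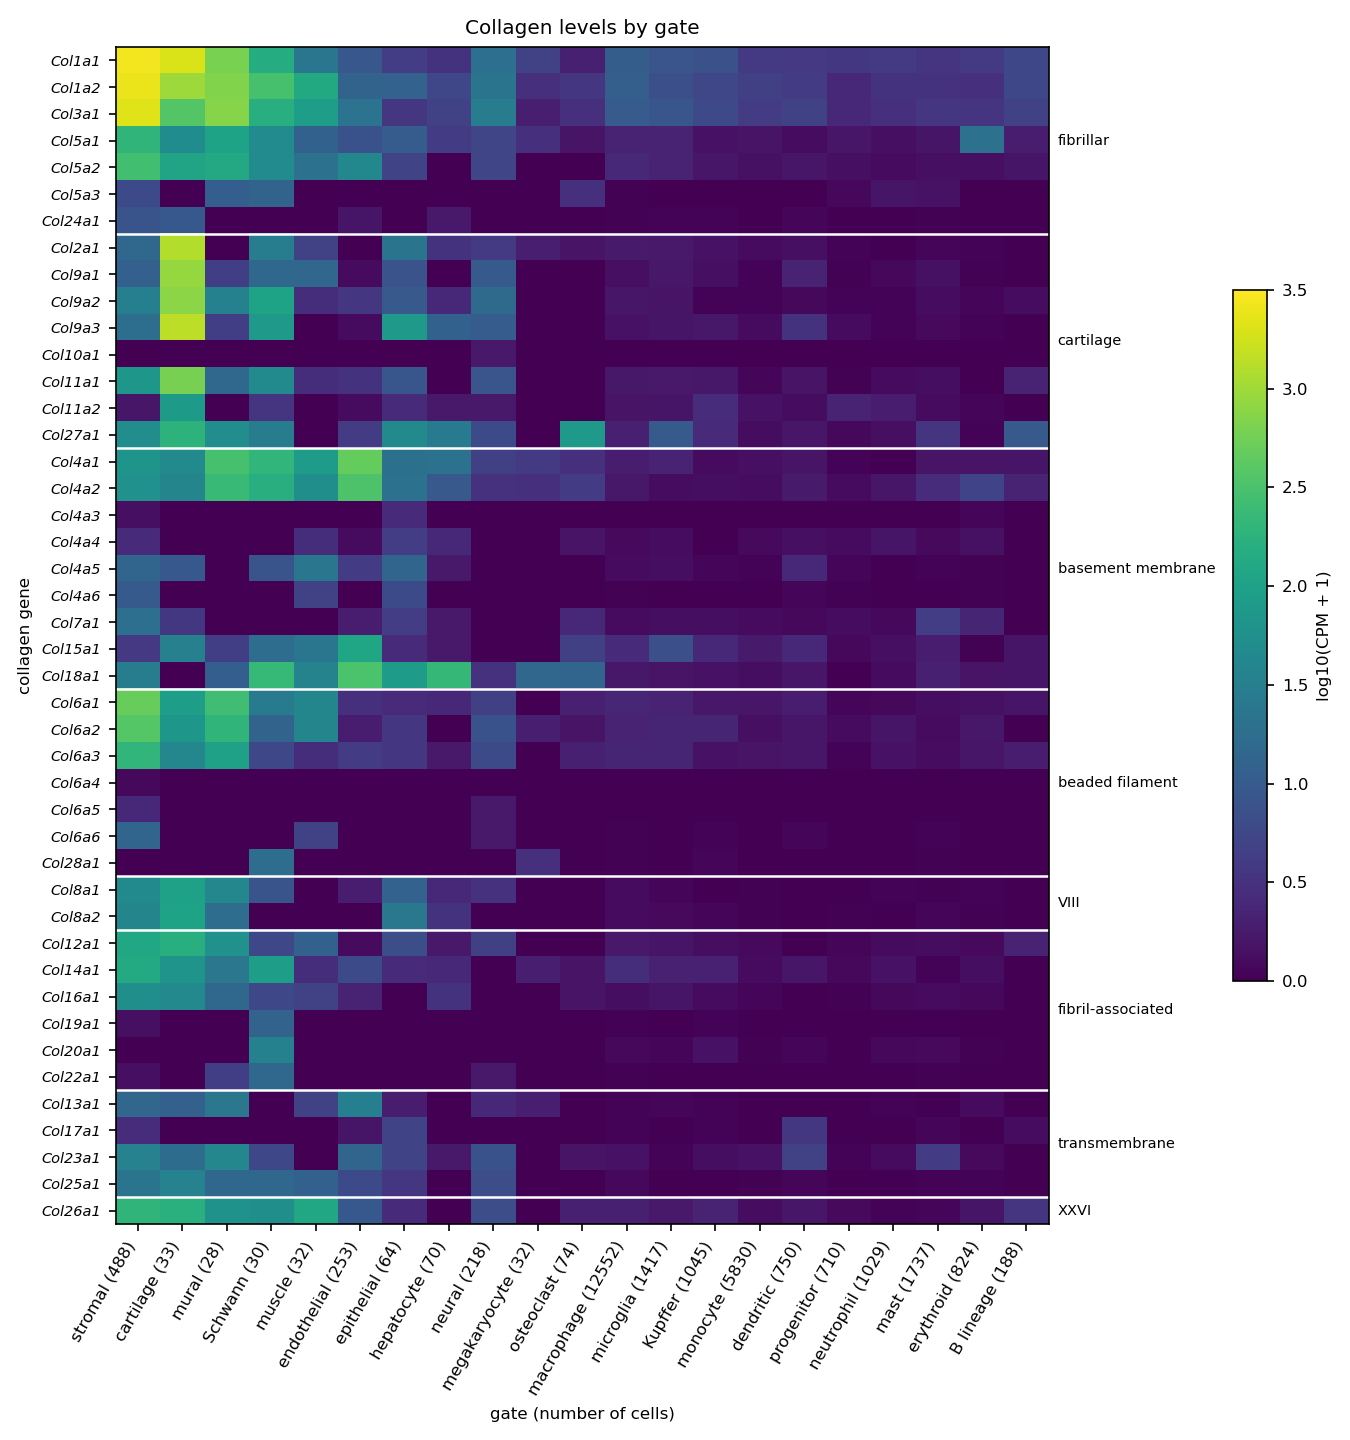
Heat map of the 44 collagen genes (rows, by structural group) across 21 gates (columns), where colour is log10(CPM + 1) of the summed UMIs of each gate. Col1a1, Col1a2, Col3a1, Col5a1, Col5a2 and the Col6 chains 1 to 3 are strongest in the stromal column, types II, IX and XI in the cartilage column, Col4a1, Col4a2, Col15a1 and Col18a1 in the endothelial column, and the strongest values in blood gates are Col27a1 in osteoclasts (73.9 CPM) and Col5a1 in erythroid cells (19.7 CPM).

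Compared with macrophages, 19 of 44 collagens were higher in the stromal gate, against 1.77% of all features, and 0 were lower, against 1.25%. None could be called lower on this scale, because no collagen exceeded 10.4 CPM in macrophages. With features under 10 CPM in both gates set aside, 19 of 29 were higher, against 5.92%. The median difference over the 44 genes was 1.53 on the log2 scale, beside 0 over all features. The smallest of the 19 was Col23a1, a transmembrane collagen, at 34.2 CPM and a difference of 2.08, and just below the limit was Col9a2 at 31.0 CPM and 1.95. With a pseudocount of 1 CPM the count was 32 of 44, against 6.73% of all features.

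Type I collagen, the fibre-forming collagen of skin, tendon and bone, led the stromal gate. Col1a1 stood at 2495, 3969, 2208 and 2741 CPM in libraries 1 to 4 of the stromal gate, 2760 in all (2714 to 2807), against 8.85, 7.26, 13.6 and 11.7 in macrophages. Library 2 was the highest and library 3 the lowest of the stromal values, and the gates did not overlap in any library. The log2 difference was 7.12. After thinning each cell to 2000 UMIs, 408 of 456 stromal cells (89.5%, 86.3 to 92.1) held a Col1a1 UMI, against 1.34% of macrophages and 0 of 74 osteoclasts, with an exact upper bound of 4.86%. Unthinned shares were 94.9%, 5.74% and 2.70%.

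Col1a2, the second chain of type I, followed at 2217, 3305, 2275 and 2556 CPM, with a difference of 6.94 from macrophages. Col3a1, whose type III fibrils are found with type I in skin and vessel walls, stood at 1897, 2708, 2003 and 2108 CPM, with a difference of 6.80. Library 2 was the highest for each of these genes and the other 3 libraries lay close together. Across the 456 stromal cells with at least 2000 UMIs, the shares of UMIs from Col1a1 and Col1a2 ranked alike, with a Spearman rho of 0.80, and those of Col1a1 and Col3a1 with 0.72. These values describe cells that share libraries and differ in depth.

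The type V chains, which start type I fibrils and limit their width, were lower. Col5a2 stood at 238, 320, 245 and 314 CPM in the stromal gate, 273 in all, and Col5a1 at 173, 231, 168 and 221, 194 in all. Both were higher than in macrophages, by 4.63 and 4.19. The other soft-tissue fibrillar genes, Col5a3 and Col24a1, stayed at 5.07 and 7.09 CPM.

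**Figure D2:**
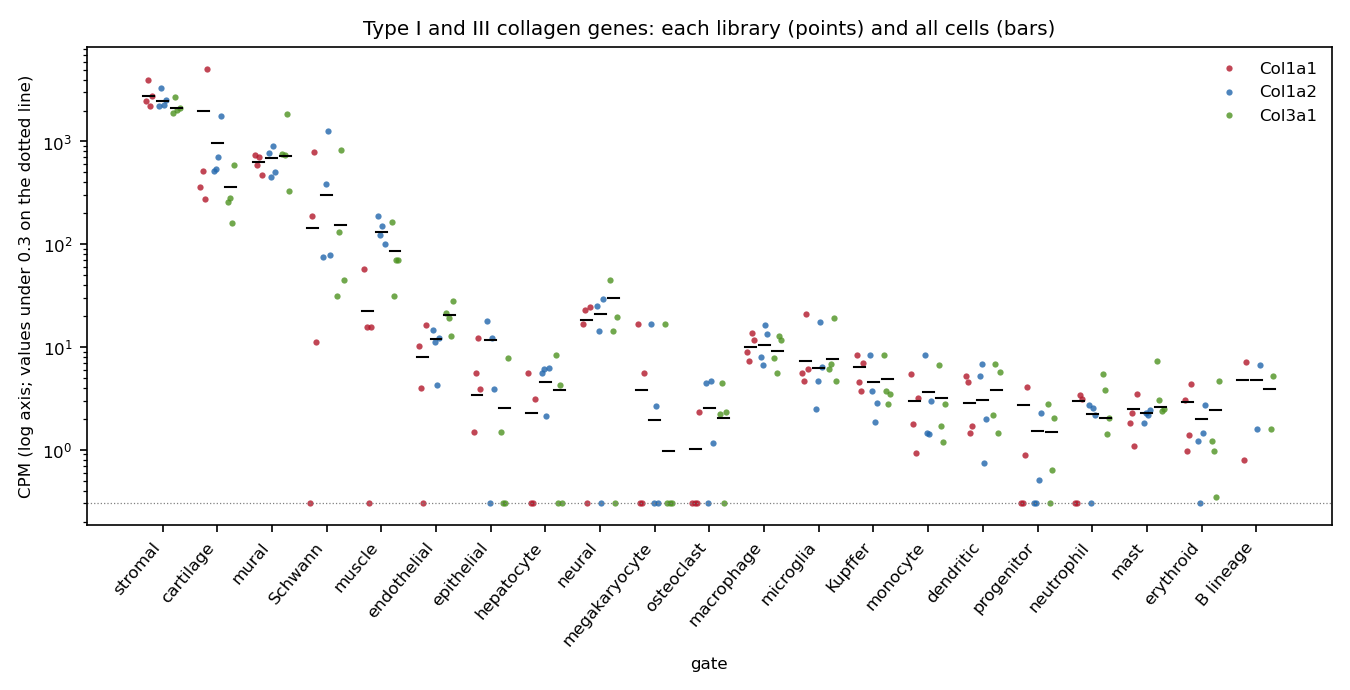
Levels of Col1a1, Col1a2 and Col3a1 (CPM, log axis) in each gate, with points for libraries 1 to 4 and bars for all cells of a gate, and values under 0.3 CPM drawn on the dotted line. Stromal points lie between 1897 and 3969 CPM, macrophage points between 5.54 and 16.2, and osteoclast points at or below 4.62.

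Type VI collagen, the beaded filament that surrounds cells of many tissues, was the next most abundant type. Col6a1 stood at 487, 604, 346 and 475 CPM in the stromal gate, 480 in all, against 1.40 in macrophages, a difference of 5.42. Col6a2 reached 382 and Col6a3 199 CPM, with differences of 5.12 and 4.21. Library 2 was highest and library 3 lowest for Col6a1 and Col6a2, as for Col1a1. The other 4 genes of this group were low, the highest being Col6a6 at 12.8 CPM.

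The fibril-associated genes Col14a1 and Col12a1, whose products lie on the surface of type I fibrils, stood at 137 and 124 CPM. Col12a1 was 97.1, 102, 185 and 140 CPM by library and Col14a1 112, 170, 140 and 151, so their order changed with the library. Col16a1, of the same family, stood at 54.3. Col26a1, which codes for a secreted glycoprotein with collagen domains, stood at 187, 186, 198 and 202 CPM, the narrowest spread among the abundant members. It was also present in cartilage (167 CPM) and in the 32 cells of the muscle gate (126 CPM, 97.9 to 160), and at 1.02 CPM in macrophages. Type VIII, the short-chain network collagen, stood at 44.2 CPM (Col8a1) and 38.7 CPM (Col8a2).

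Partner chains of a trimer kept a narrow ratio of UMIs in some gates and not in others. Of the Col1a1 and Col1a2 UMIs, 52.5% were Col1a1 in the stromal gate (51.9 to 53.1, libraries 49.2% to 54.6%). In muscle cells, with 12 UMIs of Col1a1 and 70 of Col1a2, it was 14.6% (7.80 to 24.2), and in Schwann cells 32.6% (26.0 to 39.8). Col1a2 was thus present at 132 CPM in muscle cells beside 22.6 CPM of Col1a1. The stromal markers Dcn, Lum and Ptn summed to 189 CPM in the muscle gate (93 to 336 by library). They summed to 417 CPM in the Schwann gate (224 to 1227), and the part of stromal material in these values was not tested. In the Schwann gate both chains were highest in library 3, with Col1a2 at 1270 CPM there and 74.7, 386 and 78.0 CPM in libraries 1, 2 and 4, and 46 of its 126 UMIs lay in a single cell. Of Col5a1 and Col5a2 UMIs, 41.6% were Col5a1 in the stromal gate, with 40.7% to 42.1% by library, and of Col6a1 and Col6a2 UMIs 55.7% were Col6a1.

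Cartilage cells were gated on 2 or more of Acan, Matn1, Matn4, Hapln1, Cnmd, Comp, Ucma and Sox9. The gate held only 33 cells, under the 50 set as the least for naming a gene by its level, and Comp was at 0 in it, while Matn4 reached 961 and Sox9 643 CPM. Against the stromal gate 6 of 44 collagens were higher, with 0.113% of all features as background, and 4 were lower, with 0.177%. The median difference over the 44 was -0.19, beside 0 over all features. All 6 higher genes belong to types II, IX and XI, the collagens of the cartilage fibril.

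Col2a1, the main fibril collagen of cartilage, stood at 1022, 867, 2923 and 1144 CPM in libraries 1 to 4 of the cartilage gate (10, 8, 5 and 10 cells) and at 8.13, 15.5, 16.6 and 18.7 CPM in the stromal gate. The difference was 5.74 and the gates did not overlap. The type IX chains, which decorate the cartilage fibril, were of a like height: Col9a3 at 1396 CPM, Col9a1 at 889 and Col9a2 at 778, with differences of 5.68, 5.44 and 4.26. Library 3, with 5 cells, was the highest for Col2a1 and all 3 type IX chains. Col11a1 and Col11a2, the chains of type XI that form the core of the fibril, stood at 608 and 81.0 CPM, with differences of 2.95 and 3.10. Col11a1 was also present in stromal cells at 64.5, 35.8, 99.4 and 81.7 CPM, where it made up 83.8% of Col11a1 and Col2a1 UMIs, against 32.8% in cartilage.

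The 4 lower genes in cartilage were Col3a1 and the 3 main type VI chains. Col3a1 stood at 362 CPM there against 2107 in stromal cells, a difference of -2.51, and Col6a1 at 86.4 against 480, a difference of -2.34. Col6a2 and Col6a3 differed by -2.29 and -2.05. The Col1a1 level of the cartilage gate, 1990 CPM, came mainly from a single cell of library 4 that held 627 of 737 UMIs. Without that cell Col1a1 stood at 329 CPM, 3.03 lower than stromal on the log2 scale instead of 0.47 lower, and Col2a1 at 1333 CPM. Col27a1 stood at 184 CPM (189, 104, 183 and 240), 1.68 above stromal cells and so short of the 4-fold limit. Col10a1, the collagen of mature growth-plate cartilage, had no UMI in the gate, where 3 UMIs correspond to 8.10 CPM.

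Outside cartilage, the type IX genes were highest in the Schwann and epithelial gates. In the 30 Schwann cells Col9a2 stood at 107 CPM (45 UMIs in 15 cells) and Col9a3 at 73.9 CPM (31 UMIs in 9 cells), and library 3 was the highest for both, at 444 and 275 CPM. Col9a3 reached 76.9 CPM in the 64 cells of the epithelial gate, where 8 cells held its 91 UMIs and a single cell held 49 of them. Col9a2 stood at 31.0 CPM in stromal cells, 28.5 to 35.8 by library. Of the type IX genes, Col9a3 shares its position with Tcfl5 on the opposite strand. Use of strand in counting was not given, so whether reads of such overlapping pairs were told apart is not known.

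Endothelial cells, the lining of blood vessels, were gated on Cdh5, Cldn5 and 6 other vessel genes. Against stromal cells 4 of 44 collagens were higher, with 0.721% of all features as background, and 16 were lower, with 0.918%. The median difference was -1.03, beside 0 over all features. The 4 higher genes all encode collagens of the basement membrane zone, and the 16 lower ones include every type I, III, V and VI gene that reached 50 CPM in stromal cells. Macrophage markers summed to 1101 CPM in this gate, against 304 in the stromal gate, and their part in the values was not tested, while Col4a1 itself stood at 0.821 CPM in macrophages.

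Col4a1 stood at 378, 498, 593 and 555 CPM in the endothelial gate against 57.4, 74.0, 50.9 and 74.7 in the stromal gate, a difference of 2.69. Its partner Col4a2 stood at 261, 328, 532 and 408 CPM, a difference of 2.36. Neither overlapped with the stromal gate in any library, and library 1 was the lowest for both. Col4a1 made up 58.0% of the UMIs of this head-to-head pair in endothelial cells (56.2 to 59.9) and 52.6% in stromal cells (48.5 to 56.7). Across 237 endothelial cells the pair ranked alike with a Spearman rho of 0.70. Both were also high in the mural gate, at 299 and 228 CPM.

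Col18a1, whose product in vessel basement membranes carries the endostatin fragment, stood at 265, 363, 425 and 293 CPM, 318 in all, a difference of 3.05 from stromal cells. Stromal Col18a1 varied widely, with 12.7, 47.8, 5.92 and 59.1 CPM by library, and a single cell held 30 of its 146 UMIs. It was also present in hepatocytes (210 CPM, 174, 97.6, 265 and 227 by library, 70 cells), Schwann cells (219 CPM) and epithelial cells (84.5 CPM). Hepatocyte markers summed to 11809 CPM in the epithelial gate (135 to 68687 by library), and their part in its value was not tested. The opposite strand of Col18a1 holds Slc19a1, which leaves the same uncertainty as for Col9a3. Col15a1, the related collagen of the basement membrane border, stood at 94.1, 117, 131 and 145 CPM in the endothelial gate and at 2.84 in the stromal gate, a difference of 3.26.

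Among the fibrillar genes the endothelial gate kept little. Col1a1 stood at 10.2, 4.03, 0 and 16.2 CPM, a range that spans the macrophage libraries, and Col1a2 at 11.9 in all. Col5a2 was the highest, at 42.3 CPM (29.9 to 60.6 by library), with Col5a1 at 6.52, so Col5a1 made up 13.4% of that pair here (8.67 to 19.4) against 41.6% in stromal cells. The remaining type IV genes, Col4a3 to Col4a6, stayed under 50 CPM in every gate, and the highest was Col4a5 at 22.6 CPM in muscle cells.

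**Figure D3:**
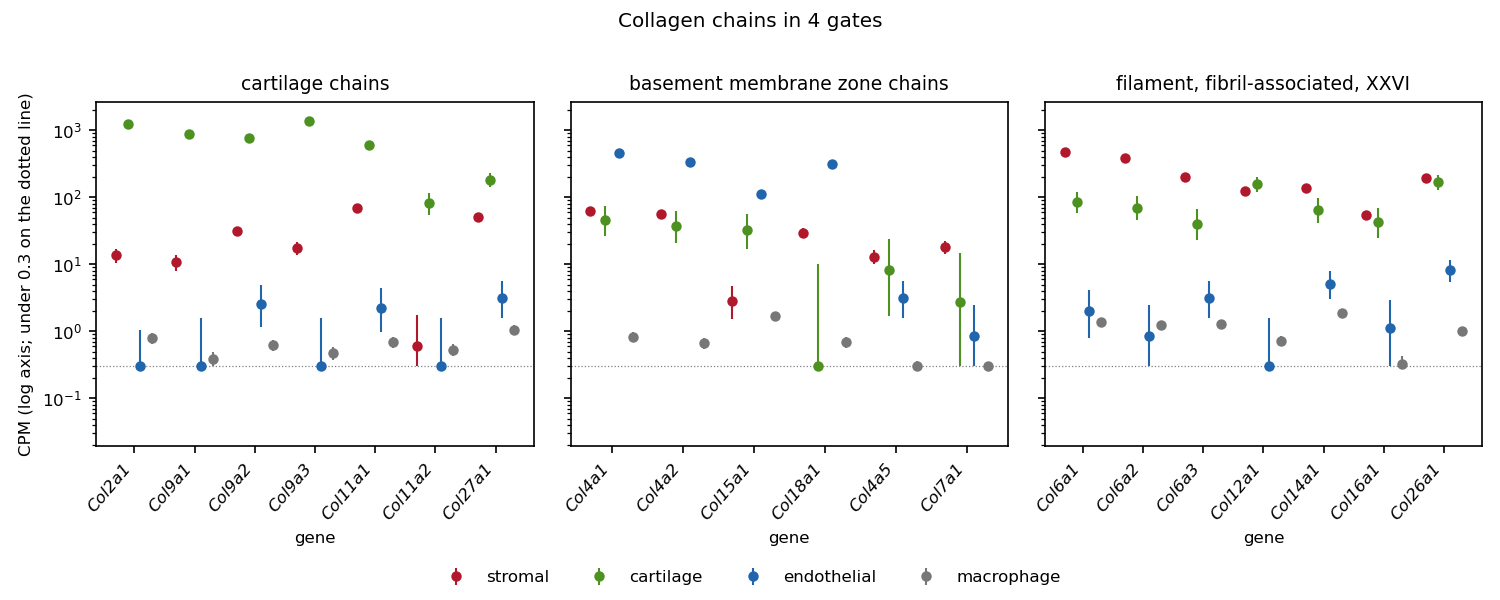
CPM (log axis) of cartilage, basement membrane and filament or fibril-associated collagens in the stromal, cartilage, endothelial and macrophage gates, with 95% Poisson intervals, and values under 0.3 CPM drawn on the dotted line. Col2a1 is at 1248 CPM in cartilage and 13.6 in stromal cells, Col4a1 at 465 in endothelial and 63.6 in stromal cells, and Col6a1 at 480 in stromal and 1.99 in endothelial cells.

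Connective cells were not uniform in their collagens. The 572 cells of the stromal, cartilage, mural, meningeal and osteoblast gates were clustered without any collagen gene, which gave 12 sub-clusters, 11 of them with at least 20 cells, described here by their leading genes with no test. Sub-cluster 4 (60 cells, led by Dpt, Adam33 and Ptx3) had the highest collagen share, 1.42% of UMIs, with Col1a1 at 4309 CPM and Col1a2 at 4049, against 2311 and 2040 in the other connective cells. Sub-cluster 5 (80 cells, led by Tfap2b, Sostdc1 and Lgals7) had the lowest of these 11, 0.513%, with Col1a1 at 1227 CPM. Their median depths were 13533 and 8420 UMIs. Both held Col26a1, at 238 and 246 CPM.

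Sub-cluster 0 (23 cells, 7, 2, 2 and 12 by library) was led by C1qtnf3, Tnmd, Scx and Mkx, of which Scx and Tnmd are tendon genes. It held Col11a1 at 360 CPM (281 to 453) against 97 in the other connective cells, Col12a1 at 320 against 114, Col5a2 at 524 against 246 and Col13a1 at 79.9 against 12.2. Col2a1 stood at 64.9 CPM in it, whereas the sub-cluster led by Cnmd, with most of the cartilage gate, held Col2a1 at 1325 CPM and Col11a1 at 680. Col7a1, the anchoring fibril collagen beneath epithelia, was low in the stromal gate as a whole (18 CPM) and stood at 75 CPM in sub-cluster 6 (46 cells, Ass1, Crabp1, Nrgn) and 68.2 in sub-cluster 9 (40 cells, Lix1, Nrn1, Crabp1). Sub-cluster 6 also held the most Col6a1 of those named here, 738 CPM (663 to 819), with Col1a1 at 1544.

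Basement membrane genes were unevenly spread too. Sub-cluster 1 (62 cells, 17 of them from the mural gate, led by the smooth muscle genes Actg2, Mylk and Acta2) held Col4a1 at 138 CPM and Col18a1 at 85.4, the latter in only 10 cells. Sub-cluster 8 (39 cells, 17 from the meningeal gate, led by Ttr, Cldn11 and Ptgds) held more of both, Col4a1 at 184 CPM and Col18a1 at 152, the latter in 18 cells. It also held Col4a2 at 239 CPM against 59.8 in the other connective cells and Col8a2 at 133 against 36.7. Sub-cluster 11 (31 cells) had a median of 2129 UMIs and is given no further description.

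**Figure D4:**
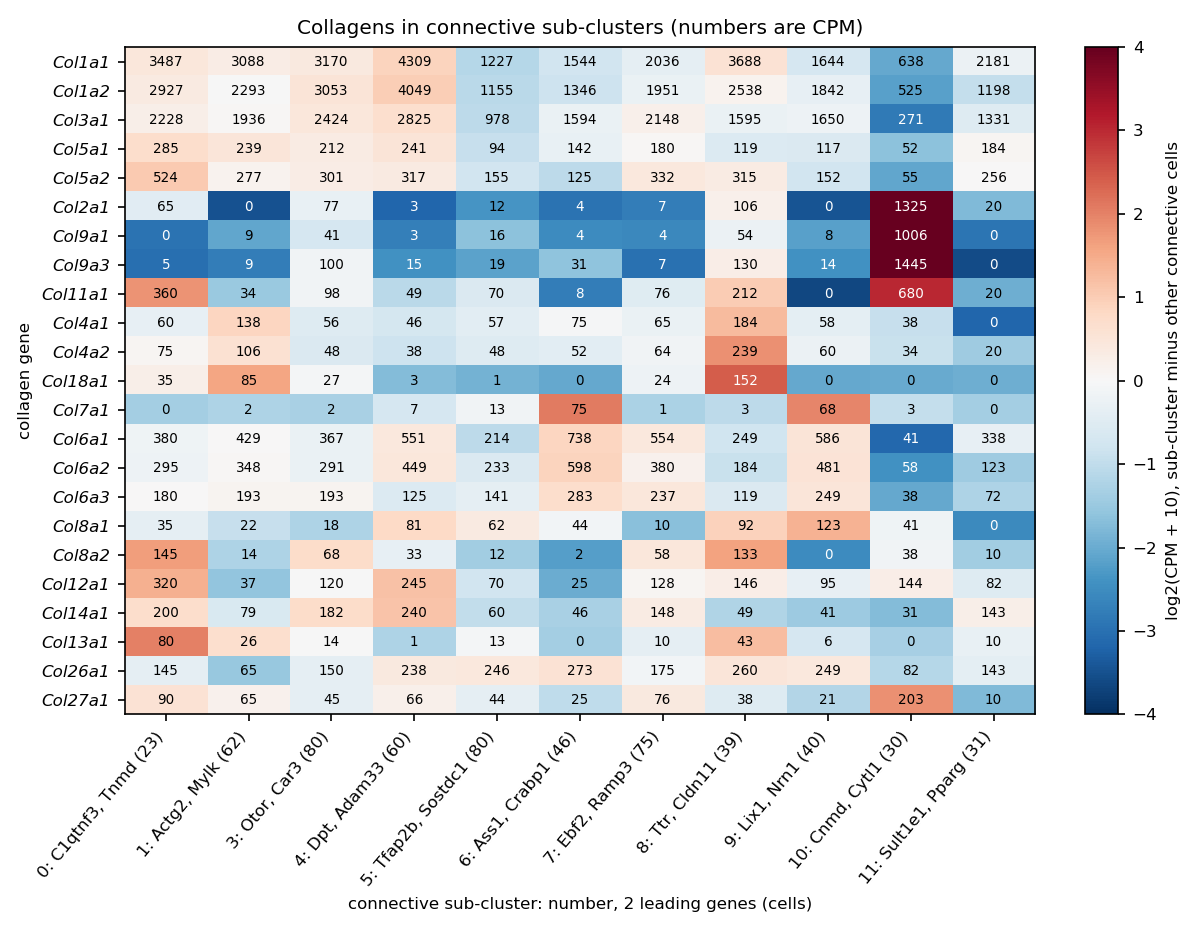
CPM of collagens (printed values) in the 11 connective sub-clusters of at least 20 cells, coloured by the difference of log2(CPM + 10) from the other connective cells. Col2a1, Col9a1, Col9a3 and Col11a1 are highest in the sub-cluster led by Cnmd, Col12a1 and Col13a1 in the one led by C1qtnf3, and Col7a1 in those led by Ass1 and Lix1.

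In macrophages the fibrillar trio Col1a1, Col1a2 and Col3a1, the collagens of highest level in the stromal gate, was present at 29.3 CPM in all, 0.398% of the stromal level, with 24.7, 19.5, 42.6 and 36.7 CPM in libraries 1 to 4. Most of these UMIs lay in few cells: 112 of 12552 cells held 5 or more of them and together 2981 of 5006 (59.5%). Without those cells the level was 12 CPM, or 0.163 UMIs per cell. The 235 barcodes left out as mixed stromal and leukocyte held 10889 trio UMIs, which the macrophage level does not include. Col1a1 made up 33.8% of the trio in macrophages and 37.5% in stromal cells. Free RNA and doublets can both place such UMIs in a blood cell, and their part was not tested.

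The other blood gates held less of the trio, from 5.61 CPM in osteoclasts to 21.2 in microglia, with 15.9 in Kupffer cells, 9.77 in monocytes, 7.43 in mast cells, 7.34 in erythroid cells and 7.24 in neutrophils. Between macrophages and monocytes 0 of 44 collagens were higher or lower, against 0.293% and 0.164% of all features. That count was fixed by the scale, since the highest collagen, Col1a2, stood at 10.4 and 3.62 CPM. With 10 CPM added, such levels cannot differ 4-fold, so the count says nothing about a difference. Apart from the trio, the highest collagen in macrophages was Col14a1 at 1.85 CPM.

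Osteoclasts were gated on at least 4 markers such as Acp5, Ctsk and Mmp9, and the 74 cells (15, 10, 17 and 32 by library) held Acp5 at 3329, Ctsk at 3165 and Mmp9 at 2201 CPM. Of the trio they held 11 UMIs in 11 cells, 5.61 CPM (2.80 to 10.0) or 0.149 per cell, with no cell above 1. Of the 44 collagens 24 had no UMI in them, and 3 UMIs there correspond to 1.53 CPM. Col1a1 had 2 UMIs, 1.02 CPM (0.123 to 3.68), and was 0.85 below macrophages on the log2 scale. That difference was -0.34 when blood cells with 5 or more trio UMIs were left out and -0.05 when cells were classed by clustering.

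Compared with macrophages, 1 of 44 collagens was higher in osteoclasts, against 0.287% of all features, and 0 were lower, against 0.773%. None could be called lower on this scale, because no collagen exceeded 10.4 CPM in macrophages. The higher gene was Col27a1, at 76.5, 67.4, 76.3 and 73.1 CPM in libraries 1 to 4, 73.9 in all (62.4 to 87.0), against 1.33, 0.525, 1.27 and 1.16 CPM in macrophages. All 4 osteoclast libraries lay close together and none overlapped with macrophages. The difference was 2.92, and 145 UMIs lay in 48 of 74 cells with at most 11 in a cell. After thinning, 9 of 74 osteoclasts (12.2%, 5.71 to 21.8) held a Col27a1 UMI and 0.254% of macrophages, beside 64.9% and 1.16% unthinned. The stromal level was 50.2 CPM.

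Over the mononuclear blood cells, Col27a1 was at 0.978 CPM in those with 0 or 1 of the osteoclast markers, 0.858 with 2, 2.65 with 3, 1.34 with 4, 21 with 5 (14 cells) and 70.7 (59.6 to 83.3) with 6 to 8. Those markers are the ones of the gate, so this describes the gate's edge. The trio did not follow the same order, with 18, 25.1, 76.6, 4.03, 60.5 and 5.44 CPM. Col27a1 hosts the microRNA gene Mir455 on its own strand, and no gene is annotated on the opposite strand there. The only other collagen above 10 CPM in osteoclasts was Col18a1, at 27.0, 13.5, 9.25 and 6.96 CPM, 25 UMIs in 15 cells. With a pseudocount of 1 CPM it was counted as higher too, which made 2 of 44, against 1.11% of all features.

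**Figure D5:**
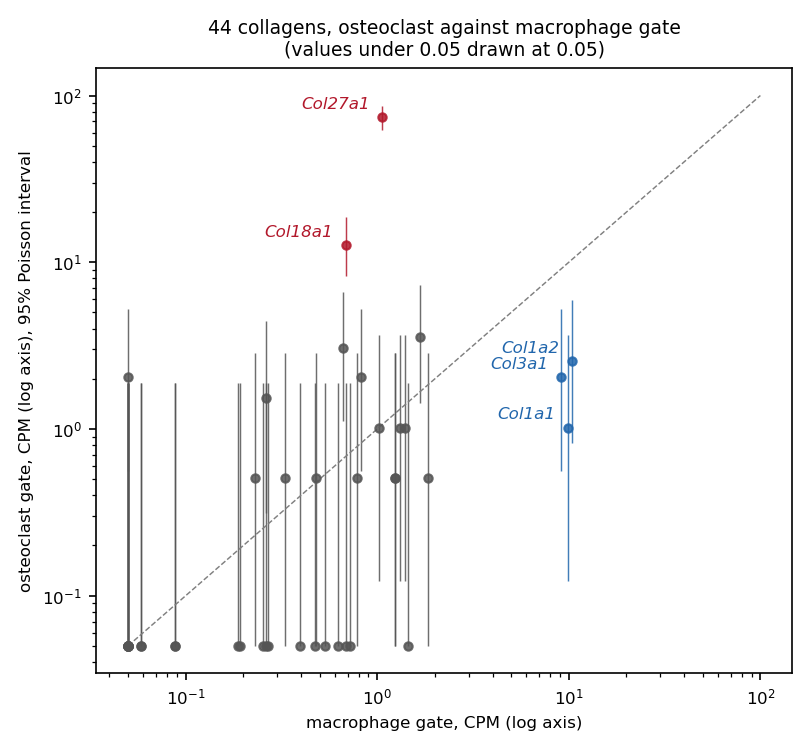
Each of the 44 collagens by its level in macrophages (x axis, CPM, log scale) and osteoclasts (y axis, CPM, log scale), with 95% Poisson intervals for osteoclasts, a dashed line of equal levels, and values under 0.05 CPM drawn at 0.05. Col27a1 lies highest, at 73.9 CPM in osteoclasts and 1.06 in macrophages, Col18a1 is next at 12.7 and 0.686, and Col1a1, Col1a2 and Col3a1 lie at 9.05 to 10.4 CPM in macrophages and at or below 2.55 in osteoclasts.

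The highest collagen differed between blood gates. Erythroid cells aside, it was Col27a1 in osteoclasts and B lineage cells (8.37 CPM, cells of libraries 3 and 4 only), Col18a1 in megakaryocytes (13.5 CPM, 14 UMIs) and a gene of the fibrillar trio in macrophages, Kupffer cells, monocytes, progenitors and neutrophils. In B lineage cells, megakaryocytes, microglia, mast and dendritic cells the leading genes had overlapping intervals. Next in B lineage cells were Col1a1 and Col1a2 with 16 UMIs each (4.78 CPM), and in megakaryocytes Col1a1 with 4 UMIs (3.85 CPM). Microglia held Col27a1 at 8.68 CPM (7.19 to 10.4) beside Col3a1 at 7.66, and in library 3 Col3a1 was the higher, at 19.1 against 6.17. Mast cells held Col7a1 at 3.32 CPM (2.70 to 4.03) and Col23a1 at 3.22 (2.62 to 3.93), with Col7a1 the higher in library 3 only. Dendritic cells held Col23a1 at 3.95 CPM (2.81 to 5.4) and Col3a1 at 3.85. Of 492 pairs of a collagen with a blood gate, 39, with 15 collagens among them, had at least 20 UMIs and an interval at least 4-fold above the stromal profile scaled to the trio of that gate. Free RNA from cartilage and vessels is not in that profile. No share over all features was taken for this rule, so 39 of 492 cannot be read as many or few.

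Erythroid cells stood out by Col5a1, at 7.85, 15.6, 24.6 and 17 CPM in libraries 1 to 4 and 19.7 in all (18 to 21.4), with 536 UMIs in 233 of 824 cells. Its partner Col5a2 had 11 UMIs there, so Col5a1 made up 98.0% of the pair (96.4 to 99.0), against 41.6% in stromal cells. The trio stood at 7.34 CPM in the same cells. After thinning, 2.74% of erythroid cells held a Col5a1 UMI, beside 28.3% unthinned at a median depth of 34762 UMIs. The genes 2810430I11Rik and Gm13372 lie on the opposite strand of Col5a1. Whether their reads were told apart from those of Col5a1 is not known, because use of strand was not given. Among other chains in erythroid cells, Col4a2 had 109 UMIs and Col4a1 14.

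The genes that build and process collagen were read from lists of the pathway. Of 20 genes of chain modification and folding, 9 were higher in stromal cells than in macrophages, against 1.77% of all features, and 0 lower, against 1.25%, with a median difference of 1.68 beside 0 over all features. Serpinh1, the chaperone of the collagen triple helix, stood at 2723 CPM against 18.5, and 1265 in endothelial cells. Fkbp10 stood at 194 against 0.920, P3h4 at 140 against 1.88 and P3h1, a prolyl 3-hydroxylase, at 112 against 6.58. Of 12 trimming and cross-linking genes 6 were higher and 0 lower, against the same 1.77% and 1.25%, with a median of 1.64. None of these could be called lower, because none exceeded 5.11 CPM in macrophages. Pcolce, which enhances removal of the C-terminal propeptide, stood at 348 CPM against 2.72, and the cross-linking enzymes Lox, Loxl2 and Loxl1 at 133, 104 and 98.5 against 0.786, 5.11 and 0.557.

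Matrix partners of collagens were counted in the same way. Of 10 fibril partners 8 were higher in stromal cells than in macrophages, against 1.77% of all features, with a median of 3.05. Among them was Sparc at 2676 CPM against 27.0, Bgn at 446, Fn1 at 339 and Fbn2 at 264. Sparc was not limited to connective cells, with 2132 CPM in endothelial cells and 1649 in microglia, where it is a gate marker. Of 10 basement membrane partners 4 were higher, again against 1.77%, with a median of 1.47. Hspg2, which encodes perlecan, was 4-fold higher again in endothelial cells, at 220 CPM against 39.7 in stromal cells, while Lama4, Nid1 and Lamb1 (121, 101 and 79.1 CPM in endothelial cells) did not reach that limit between these gates.

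Genes of collagen breakdown and uptake differed in where they were highest. Of 12 genes of breakdown and its inhibition 6 were higher in stromal cells than in macrophages, against 1.77% of all features. In osteoclasts 3 were higher than in macrophages, against 0.287%. The medians were 2.11 and -0.05 beside 0 over all features. Mmp14, the membrane-bound collagenase, stood at 280 CPM in stromal cells, 252 in osteoclasts and 5.81 in macrophages, and it is no gate marker. Ctsk and Mmp9, the other 2 in osteoclasts, are markers of that gate. Ctsk was among the 6 in stromal cells as well, at 127 CPM against 0.938 in macrophages. Mmp2 stood at 176 CPM in stromal cells and 4.45 in macrophages. Timp1 and Timp3, also among the 6, stood at 61.2 and 51.9 CPM in stromal cells and 0.311 and 0.874 in macrophages. Both encode inhibitors of metalloproteinases, so the 6 are not all proteases. Of 11 collagen receptor genes 2 were higher in stromal cells, against 1.77% of all features, and 2 lower, against 1.25%, with a median of 0.45. Ddr2, a receptor kinase that binds fibrillar collagen, stood at 71.3 CPM against 0.563, and Mrc1, an endocytic receptor and a marker of the macrophage gate, at 13.6 against 747, with 25.5 in osteoclasts.

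The 25 collagens that stayed under 50 CPM in every gate of at least 50 cells included genes that were highest in a small gate. In the 30 Schwann cells Col20a1 stood at 33.4 CPM (18.2 to 56, 14 UMIs in 7 cells) and Col28a1 at 16.7. Col22a1 stood at 14.3 (5.25 to 31.1, 6 UMIs in 3 cells) and Col19a1 at 11.9 (3.87 to 27.8, 5 UMIs in 4 cells). These 4 were at 0.478 CPM or below for Col20a1 and 3.40 or below for the others in all other gates described. In the mural and cartilage gates 3 UMIs correspond to 10.2 and 8.10 CPM, so these values do not show that the genes are restricted to Schwann cells. They were singled out after their values were seen. Col10a1 had 2 UMIs and Col6a4 4 UMIs among all kept cells.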

How the data were processed

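The deposited values are UMI counts per gene and barcode from a Chromium Single Cell 3′ v1 kit, per the labels' protocols. The authors aligned to mm10 with Cell Ranger 2.1.1, per the submitters' processing notes, whereas the matrix names version 3.0.1, per the file headers. Whether counting used strand is not stated.

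Cells with at least 1000 UMIs, 500 genes and at most 10% mitochondrial UMIs were kept. This removed 4461 barcodes. Scrublet in scanpy 1.11.5, run per library, marked 1, 0, 214 and 0 cells, which were removed. That is too few in libraries 1, 2 and 4 for the caller to have worked, so doublets may remain there. Libraries held 106500620 to 198754246 UMIs.

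Gates counted detected markers and their UMIs per 10000. Non-blood gates required at most 10 UMIs per 10000 of 6 leukocyte genes and most blood gates at least 15, and cells passing gates of different lineages were left out. The markers were fixed in the plan; the gate limits, sub-cluster settings (1500 genes, 15 components), promoter windows and motifs, and the rule comparing blood gates with the scaled stromal profile were set after the data were seen. For the alternative classes by clustering (2000 genes, 15 neighbours, resolution 1), 30 components with names from markers at least 4-fold higher were tried first. They were replaced by 40 components and 2-fold, because the first osteoclast cluster held muscle cells.

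UMIs were summed per gate and divided by the total, with numpy 2.4.6, scipy 1.17.1 and pandas 2.3.3. The 4-fold call and the Poisson interval were checked on simulated counts, with changes only in genes of at least 50 CPM. The summing over gates was not part of that check. The planned test across samples was not run because barcodes could not be tied to samples. Members and lists were chosen with earlier results of these data known. A collagen was to be named where it reached 50 CPM in a gate of at least 50 cells or was the highest of a blood gate. From other lists the rule took up to 4 of the most abundant members at 50 CPM or more that differed 4-fold between stromal cells and macrophages. Other genes named here, and the levels in gates under 50 cells, were singled out after their values were seen. Promoter windows were found for 35 of 44 collagens.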

Additional observations from a re-analysis of the deposited data

How the results depend on the processing

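Of 81 values of the main comparisons under the alternatives, 72 stayed within the spread between libraries, or within 1.5 times for counts. With a pseudocount of 1 CPM in place of 10, the Col1a1 difference between stromal cells and macrophages was 7.98, the count of collagens higher in stromal cells 32, the Col1a1 difference between osteoclasts and macrophages -2.44 and the count of collagens higher in osteoclasts 2. With cells classed by clustering without collagens, which put 1198 cells in the stromal, 108 in the cartilage and 209 in the osteoclast class, the collagen share of stromal cells was 0.594%, the Col2a1 difference between cartilage and stromal cells 4.05 and the Col1a1 difference between osteoclasts and macrophages -0.05. The Col1a1 difference between cartilage and stromal cells was then 0.43, the reverse of the main direction. Without globin, mitochondrial and ribosomal protein genes in the total, the collagen share was 1.32%. Leaving out blood cells with at least 5 UMIs of the fibrillar trio, an alternative added after the data were seen, gave -0.34 for Col1a1 in osteoclasts.

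Leaving out each library in turn gave 6.92 to 7.23 for Col1a1 in stromal cells against macrophages, 19 to 21 collagens higher, a collagen share of 0.936% to 1.06%, 5.49 to 5.91 for Col2a1 in cartilage, 2.58 to 2.81 for Col4a1 in endothelial cells, -0.95 to -0.76 for Col1a1 in osteoclasts and 1 collagen higher there. Without library 4 the Col1a1 difference between cartilage and stromal cells was -2.75. The 18 other collagens that reached 50 CPM in a gate of at least 50 cells were compared with macrophages, each in its highest such gate. All 198 alternative values of that difference had the main direction, and all 180 with a pseudocount of 10 stayed at least 4-fold. Because the genes were chosen by their level in these data, both outcomes were largely set in advance and are no measure of robustness. Of 210 values of these levels and of Col1a1 in cartilage, 157 stayed within the spread between libraries, 52 moved beyond it and 1 reversed. No paired analysis was possible because barcodes carry no sample label. Depth limits the small gates, where 3 UMIs correspond to 10.2 CPM in mural, 8.10 in cartilage, 7.15 in Schwann, 5.66 in muscle and 1.53 in osteoclast cells.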
